A study of Mus musculus with 2 samples.

Results

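The genes described here encode adhesion molecules that hematopoietic progenitors use to enter and stay in the bone marrow. They are 4 integrin alpha chains (Itga4, Itga5, Itgal and Itgam), 3 integrin beta chains (Itgb1, Itgb7 and Itgb2), the selectin ligand Selplg and the integrin ligand Icam1. Their Myb peaks were taken as the rows of the deposited list whose summit, the base with the highest Myb signal in a peak, lay in the gene body or within 30 kb of it in GENCODE vM21. This gave 47 of the 25793 peaks, and each peak fell in the window of 1 gene only. The rule used gene names and peak positions and no enrichment value, although the genes were chosen with earlier results of these data known.

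Myb binding was measured by ChIP-Seq in bone marrow of WT mice after depletion of lineage-positive cells (Lin- cells), which leaves mostly stem and progenitor cells. There was 1 Myb library, with IgG as the background, and both libraries share the genotype WT and the same cell type. In the study's methods, WT mice are Ep300 fl/fl without Mx1-Cre on a C57BL/6 background, and such mice received 3 doses of poly(I:C), an inducer of interferon, starting at 6 to 8 weeks of age. Whether the mice of the Myb libraries were among those injected, and how many were pooled, is not given in the sources used here. The purity of the Lin- cells was above 80% per the labels, so other cells could have contributed chromatin. RNA was not measured in these samples, and the cell type could not be checked against its markers. With 1 library there is no estimate of the variation between mice, and no test between groups was possible.

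Integrins are receptors made of 1 alpha and 1 beta chain. On progenitors, the Itga4 chain pairs with Itgb1 to bind VCAM-1 and fibronectin or with Itgb7 to bind MAdCAM-1, and the Itga5 chain pairs with Itgb1 to bind fibronectin. The leukocyte integrins share the Itgb2 chain, which pairs with the Itgal chain (LFA-1) or with the Itgam chain (Mac-1, also known as CD11b), and both bind ICAM-1. Mac-1 marks mature myeloid cells and is a usual target of lineage depletion. Selplg encodes the scaffold of a ligand for the selectins, on which leukocytes roll along the vessel wall before integrins arrest them. Myb is a transcription factor of progenitors that binds short DNA sequences with the core AAC.

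The sequences under the summits show how the Myb motif was distributed at these genes. The motif was searched as CAACGG or as CAACTG, and with the first base changed as TAACGG or as TAACTG, on both strands, within 50 bp of the summit. It was found at 5 of the 47 summits, once at each. The following windows of 101 bases are centered on 4 of these summits and are given on the forward strand of mm10, with the motif, or its reverse complement where it lies on the other strand, in capitals. They lie at chr2:79256448-79256548, chr15:103362603-103362703, chr7:127281144-127281244 and chr10:77590919-77591019.

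Itga4, intron: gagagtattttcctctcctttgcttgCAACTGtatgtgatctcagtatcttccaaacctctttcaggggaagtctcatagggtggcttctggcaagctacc
Itga5, intron: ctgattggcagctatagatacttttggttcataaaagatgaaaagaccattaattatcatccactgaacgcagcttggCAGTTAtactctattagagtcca
Itgal, upstream: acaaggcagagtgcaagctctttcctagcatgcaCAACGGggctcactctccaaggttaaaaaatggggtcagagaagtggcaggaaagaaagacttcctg
Itgb2, downstream: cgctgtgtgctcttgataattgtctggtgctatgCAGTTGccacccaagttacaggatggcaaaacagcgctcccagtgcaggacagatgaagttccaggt

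The fifth was at a start site of Selplg, of which the 30 bases around the motif, at chr5:113830457-113830486, are cccgccaaccccCAACGGcagggtgtggaa. Only 3 of the 5 motifs, those of Itga4, Itga5 and Selplg, were at peaks whose nearest start site was that of the member. The Itgal and Itgb2 motifs lay nearer to a neighboring gene.

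Except at Itga5, the strongest peak nearest to each gene that had one carried no Myb motif at its summit. Shown here are the windows of the strongest peak nearest to Itga4, Itgb1, Itgb7, Itgal and Selplg, at chr2:79259401-79259501, chr8:128688754-128688854, chr15:102225312-102225412, chr7:127296172-127296272 and chr5:113837279-113837379. Capitals mark motifs of other factor families, which were ETS (AGGAAG or CGGAAG), RUNX (TGTGGT or TGCGGT), the GATA family (searched as AGATAA or TGATAA), CEBP (TTGCNNCAA or else TTGCNNTAA, and with the base before the C changed as in TTACNNCAA or else TTACNNTAA) and the E-box (CAGATG or CAGCTG), each searched on both strands.

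Itga4, intron: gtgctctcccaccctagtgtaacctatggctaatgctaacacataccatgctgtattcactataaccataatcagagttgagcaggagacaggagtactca
Itgb1, intron: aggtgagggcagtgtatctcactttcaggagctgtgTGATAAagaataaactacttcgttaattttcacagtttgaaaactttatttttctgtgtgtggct
Itgb7, intron: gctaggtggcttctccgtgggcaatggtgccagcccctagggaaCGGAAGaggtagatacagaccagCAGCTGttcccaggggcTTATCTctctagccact
Itgal, start site: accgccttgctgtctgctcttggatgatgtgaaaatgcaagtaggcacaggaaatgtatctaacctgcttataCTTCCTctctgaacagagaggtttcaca
Selplg, upstream: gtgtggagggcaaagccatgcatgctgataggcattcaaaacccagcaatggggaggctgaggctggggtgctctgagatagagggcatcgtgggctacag

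The Itgb1 window held a GATA motif, the Itgb7 window an ETS, an E-box and a GATA motif, and the Itgal window an ETS motif. None of these families had a match in the Itga4 or Selplg window.

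Each deposited peak carries a fold enrichment, which is the Myb signal at the summit over the local IgG background with 1 added to both, and a q-value, the p-value of the peak adjusted over the genome. The number of Myb reads behind a summit was recovered from the fold enrichment and the p-value, and it is given with its exact Poisson 95% interval. These reads enter the fold enrichment multiplied by 0.769, the scale of the Myb pileup, and background values are given on that scaled level. Over the whole list the recovered reads ranged from 7 to 130, so that most single peaks had wide intervals.

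All 9 genes had at least 1 Myb peak in the gene body or within 30 kb, where 62.8% of the 21938 protein-coding genes had one. A peak inside the gene body was found at 6 of the 9 genes, against 35.4% of protein-coding genes. A summit within 3 kb of a start site of the gene was found at 6 of the 9, against 39.9%, and the other 3 were Itga5, Itgb7 and Itgam. A peak of the window whose nearest annotated start site was that of the gene itself was found at 8 of the 9 genes, against 40.0%, with Itgam the exception. The number of peaks per gene ranged from 2 to 10 around a median of 5, where the median protein-coding gene had 1 and the quartiles were 0 and 4. The windows of the 9 genes were 72.8 to 138 kb long, against a median of 77.4 kb, and a longer window holds more peaks.

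**Figure D1:**
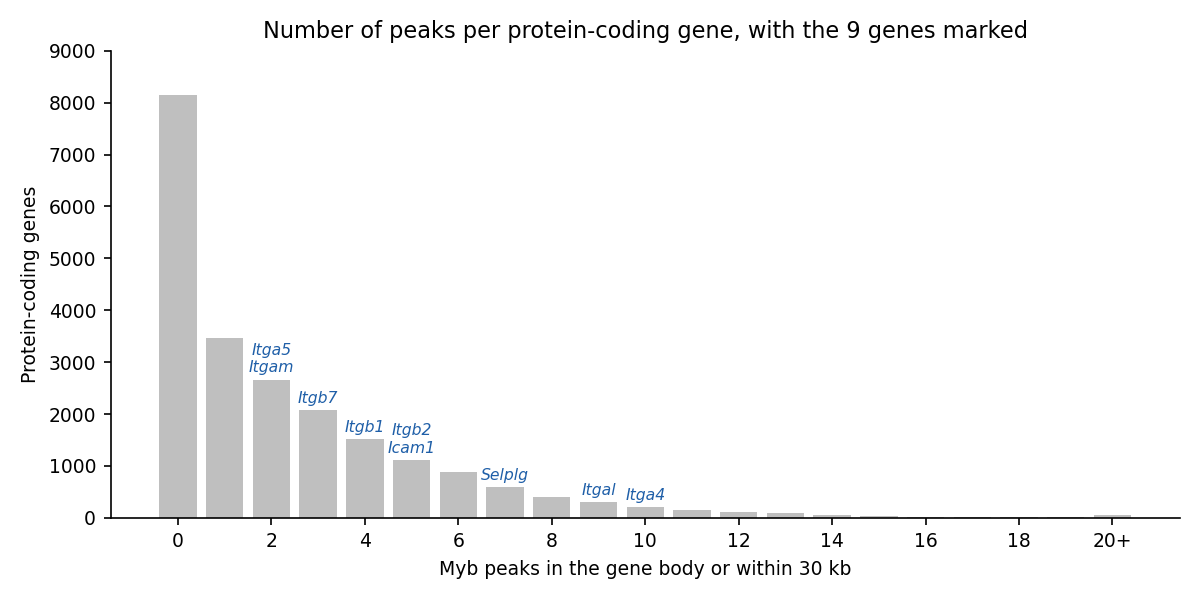
Number of protein-coding genes (vertical axis) by the number of Myb peaks in the gene body or within 30 kb (horizontal axis, with 20 or more in the last bar). Each of the 9 genes is named above the bar it belongs to, from Itga5 and Itgam with 2 peaks to Itga4 with 10, and none of them is in the bar of genes without a peak.

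Of the 47 peaks, 26 had a start site of the member as their nearest, which is 55.3% (exact 95% interval, 40.1% to 69.8%). The other 21 lay nearer to 14 neighboring genes, 16 of them within 3 kb of such a start site. Inside gene bodies were 16 peaks, of which 13 were in introns of the principal transcript, 5 of them in the first intron, and 2 in an untranslated exon. All intervals cover counting error only, since neighboring peaks of 1 library are not independent.

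**Figure D2:**
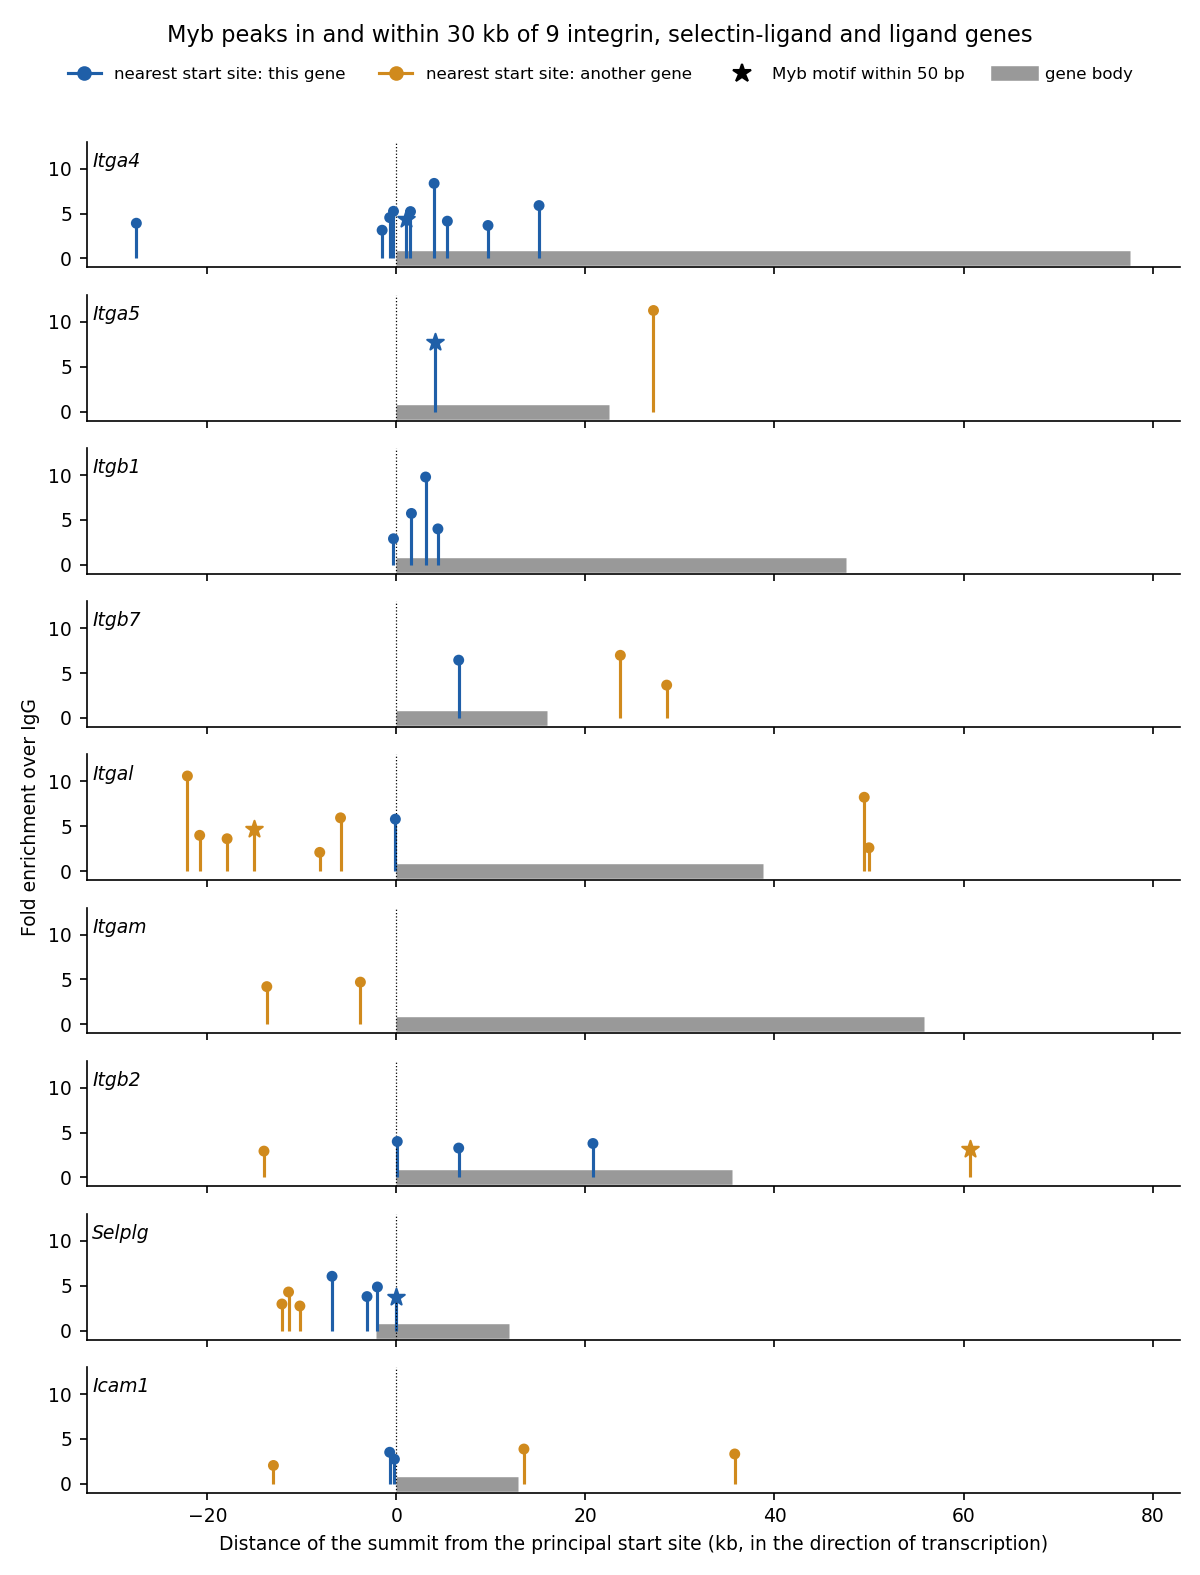
Fold enrichment of each peak over IgG (vertical axis) by the distance of its summit from the principal start site (horizontal axis, in kb along the direction of transcription), with the gene body in gray. All Itga4 and Itgb1 peaks are nearest to their own gene (blue), whereas 8 of the 9 Itgal peaks and both Itgam peaks are nearest to another gene (orange), and the 5 stars mark the summits with a Myb motif.

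The alpha chain gene Itga4, on the forward strand at chr2:79255426-79333123, had the most peaks of the 9 genes. All 10 were nearest to Itga4 itself, and 0.542% of protein-coding genes had as many peaks nearest to their own start sites in such a window. With all peaks of the window counted, 3.54% had 10 or more. The Itga4 window, 138 kb, was the longest of the 9, and 5 of the 10 summits lay within 3 kb of an Itga4 start site. Neither the window length nor the closeness of these calls was adjusted for in the 2 shares. The peaks fell at both sides of the start site and in intron 2. Upstream of it were 4 summits, from -27.5 to -0.3 kb relative to the principal start site, and the other 6 were in intron 2, from 1.0 to 15.1 kb downstream. No peak was found in the remaining gene body.

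The strongest Itga4 peak by fold enrichment was in intron 2 at chr2:79258463-79260114. Its fold enrichment of 8.36 was above that of 91.6% of all peaks and rested on 28 reads (18.6 to 40.5). The peak with the most reads, at chr2:79270029-79271323 in the same intron, had 37 reads (26.1 to 51.0) but a lower fold enrichment of 5.89. Its background was 4.0 on the scaled level, instead of 1.70. The peak over the start site, at chr2:79255037-79256181, showed 5.25-fold enrichment on 26 reads (17.0 to 38.1). Read counts of these 3 peaks did not differ beyond their intervals. The other 7 peaks had fold enrichments from 3.14 to 5.22 on 11 to 17 reads. The intronic peak with the Myb motif shown above was among them, with a fold enrichment of 4.43 on 14 reads. At a −log10 q-value of at least 5, Itga4 kept 4 peaks.

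The other fibronectin receptor chain, Itga5, on the reverse strand at chr15:103344286-103366763, had 2 peaks. In its first intron, 4.1 kb from the start site, the peak at chr15:103362232-103363389 showed 7.71-fold enrichment on 31 reads (21.1 to 44.0), and its summit window held the TAACTG motif in reverse complement. This was the strongest of the 5 peaks with a summit motif. The second peak, at chr15:103339242-103340097, lay downstream of Itga5 and 564 bp from a start site of Zfp385a. It had the highest fold enrichment of the 47, 11.3, on 46 reads (33.7 to 61.4). No summit lay within 3 kb of an Itga5 start site.

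Itgb1, the partner chain of both, on the forward strand at chr8:128685654-128733200, had 4 peaks between -0.3 and 4.4 kb from its principal start site, all nearest to Itgb1. The 3 intronic peaks were in the first intron. The strongest, at chr8:128687939-128689682, lay 3.1 kb from the principal start site and 2934 bp from the nearest Itgb1 start site. It was therefore counted among the summits within 3 kb of an own start site. Its fold enrichment of 9.78, above that of 95.1% of all peaks, rested on 30 reads (20.2 to 42.8). It was the highest fold enrichment of any peak nearest to a member. Its background of 1.46 on the scaled level was the lowest shared background of the list. By reads, the peaks of Itga4 with 37 and of Itga5 with 31 were higher. The peaks on either side of this Itgb1 peak had fold enrichments of 5.72 on 17 reads and 4.0 on 12 reads. The summit just upstream of the start site was weak, at 2.90-fold on 10 reads (4.80 to 18.4), and had a q-value above 0.05. Thus the highest Myb enrichment at Itgb1 was inside the first intron, and none of its 4 summits held a Myb motif. A GATA motif was present at 2 of them.

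Itgb7, the beta chain that pairs with Itga4 for homing to mucosal vessels, on the reverse strand at chr15:102215995-102231944, had 3 peaks. One was in its intron 2, at chr15:102225063-102225519, with a fold enrichment of 6.44 on 26 reads (17.0 to 38.1). The other 2 were downstream, 16 and 74 bp from start sites of Zfp740, with fold enrichments of 6.98 on 29 reads and 3.66 on 32 reads. No summit lay within 3 kb of an Itgb7 start site, and none of the 3 held a Myb motif. All 3 had a −log10 q-value of at least 5.

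In the leukocyte integrin group, most peaks lay outside the genes. Itgal, the alpha chain of LFA-1, on the forward strand at chr7:127296260-127335138, had 9 peaks and none in its gene body. A single one was nearest to Itgal, at chr7:127295824-127296650, with its summit 38 bp upstream of a start site. It had a fold enrichment of 5.79 on 20 reads (12.2 to 30.9), and its window held the ETS motif shown above but no Myb motif. The strongest peak of the window, at chr7:127273819-127275075, was 208 bp from a start site of Sephs2, with a fold enrichment of 10.6 on 54 reads (40.6 to 70.5), the most reads of the 47. Zfp768 had the next strongest at its start site, with a fold enrichment of 8.23 on 29 reads.

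Between Sephs2 and Itgal were further peaks, nearest to Sephs2, the pseudogene Gm17511 or the lincRNA Gm31897. One of them, at chr7:127281000-127281495 and at -15.1 kb from Itgal, had a fold enrichment of 4.75 on 18 reads and held a CAACGG motif. The peak at -5.9 kb had a fold enrichment of 5.94 on 26 reads (17.0 to 38.1), which overlapped the interval of the peak at the start site. As many peaks in such a window were found at 4.89% of protein-coding genes, but 8 of these 9 had another gene as the nearest.

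Itgam, the alpha chain of Mac-1, on the forward strand at chr7:128062640-128118491, had 2 peaks, both upstream of the gene. The nearer one, at chr7:128058491-128059217 and at -3.8 kb from the start site, had a fold enrichment of 4.70 on 16 reads (9.15 to 26.0). The farther one, at -13.7 kb, had a fold enrichment of 4.20 on 26 reads (17.0 to 38.1). No peak lay inside Itgam or within 3 kb of its start sites, and the nearest start sites were those of the snRNA Gm22809 and the pseudogene Gm9299. A Myb motif was found in neither summit window. The nearer peak had a RUNX motif and the farther one an ETS and a GATA motif.

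Itgb2, the shared beta chain, on the forward strand at chr10:77530252-77565708, had 5 peaks of low enrichment. The one at the start site, at chr10:77530060-77530455, had a fold enrichment of 4.01 on 15 reads (8.40 to 24.7). Intronic peaks 6.6 and 20.8 kb downstream had fold enrichments of 3.28 on 20 reads and 3.79 on 19 reads. The remaining peaks were nearest to Fam207a, with 2.94, and to Pttg1ip, with 3.16. Of protein-coding genes, 55.4% had a peak in the window at least as high as the strongest one of Itgb2. At a −log10 q-value of at least 5 no Itgb2 peak was left, and Itgb2 was the 1 gene of the 9 that lost all its peaks. The start site summit held ETS, RUNX and E-box motifs and no Myb motif.

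The selectin ligand gene Selplg, on the reverse strand at chr5:113818536-113832644, had 7 peaks, from its principal start site to -12.1 kb. Of these, 4 were nearest to Selplg and 3 to the antisense gene Gm17122. The strongest, at chr5:113836685-113837422, lay at -6.8 kb from the principal start site and had a fold enrichment of 6.06 on 25 reads (16.2 to 36.9). At an upstream alternative start, the peak at chr5:113832097-113833109 had a fold enrichment of 4.87 on 24 reads (15.4 to 35.7). The peak at the principal start site, at chr5:113830095-113830931, had the most reads of the 7, 28 (18.6 to 40.5). Over a background of 5.0 on the scaled level, this peak had a fold enrichment of 3.76. It held the CAACGG motif 17 bp from the summit, with ETS and RUNX motifs in the same window. The intervals of the 3 read counts overlapped. A density of 9.45 peaks per 100 kb of window made Selplg the densest of the 9 with all peaks counted, against 1.38 for the median protein-coding gene. At a −log10 q-value of at least 5, Selplg kept 2 peaks, fewer than Itgal with 4 and Itgb7 with 3.

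Icam1, the ligand of LFA-1 and Mac-1, on the forward strand at chr9:21015985-21028817, had 5 peaks, all outside its gene body. The 2 nearest to Icam1 were 695 and 247 bp upstream of its start site, with fold enrichments of 3.52 on 17 reads (9.90 to 27.2) and 2.75 on 13 reads (6.92 to 22.2). The second of these had a q-value above 0.05. The strongest of the 5, at chr9:21028986-21031895, was 73 bp from a start site of the neighboring Icam4 and had a fold enrichment of 3.88 on 34 reads (23.5 to 47.5). It was also the widest of the 47 peaks, at 2910 bp. The others lay near Mrpl4, with 2.05, and 11055 bp from Zglp1, with 3.33. No Icam1 summit held a Myb motif, and the highest fold enrichment of its window was reached by 57.0% of protein-coding genes.

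**Figure D3:**
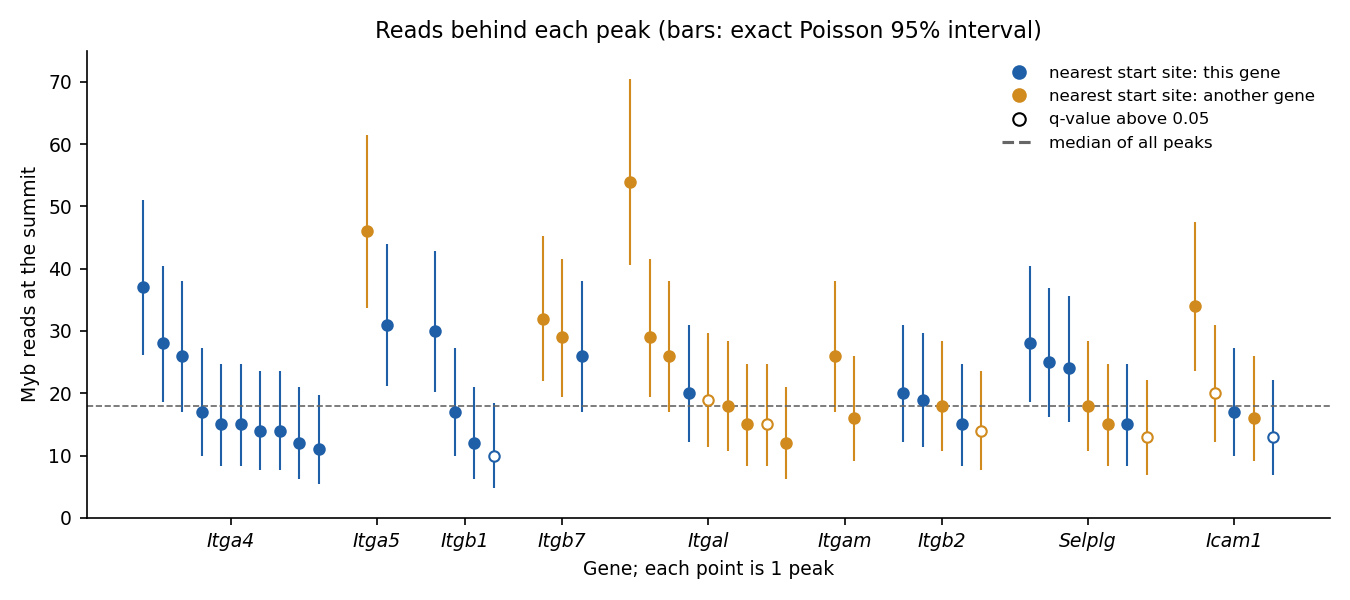
Myb reads at the summit of each of the 47 peaks (vertical axis), grouped by gene, with exact Poisson 95% intervals, filled where the q-value is at most 0.05 and colored by the nearest start site. Reads range from 10 to 54 and most intervals cross the median of all peaks, 18 (dashed), and the widest gap within a gene is in the Itgal window, between 54 and 12 reads, whose intervals do not overlap.

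To set the genes of each receptor side by side, the peaks nearest to a member were compared. For the receptor of Itga4 and Itgb1, both chains had peaks at the start site and an intronic peak of higher fold enrichment. These intronic peaks lay 4.0 and 3.1 kb into the gene, with fold enrichments of 8.36 and 9.78. At Itga4 the read counts did not differ beyond their intervals, with 28 in the intron and 26 over the start site. The start site peak of Itga4 had the higher background. At Itgb1 the intronic peak had 30 reads, and its interval lay above that of the start site peak. The Itgb1 peak just upstream of its start site was weak, at 2.90-fold on 10 reads, with a q-value above 0.05. The other partners, Itga5 of Itgb1 and Itgb7 of Itga4, had no summit within 3 kb of their own start sites. Each had 1 intronic peak nearest to it, with fold enrichments of 7.71 and 6.44. For LFA-1, the Itgal and Itgb2 genes each had 1 peak within 3 kb of their own start sites, with fold enrichments of 5.79 and 4.01. For Mac-1, the Itgb2 peak had no counterpart at Itgam. These differences rest on 1 library and were not tested.

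Enrichment at the 9 genes was moderate. The median fold enrichment of the 47 peaks was 4.01 (95% interval from order statistics, 3.76 to 4.75), against 4.51 over all peaks. For the 26 peaks nearest to a member the median was 4.29 (3.79 to 5.72), and for the other 21 it was 3.88 (2.97 to 4.75). The intervals overlapped. Of the 47, 9 were among the highest 25.1% of all peaks by fold enrichment. A median of 18 reads covered the summits, as in the whole list, and the median width was 496 bp, against 577 bp. A q-value above 0.05 was found for 7 of the 47 peaks, or 14.9% (6.20% to 28.3%), against 7.24% of all peaks. These were at Itgb1, Itgal, Itgb2, Selplg and Icam1.

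The share of summits with the Myb motif at the 9 genes, 10.6% (3.55% to 23.1%), was set beside 16.7% of all 25793 summits, and its interval included that value. The share was 11.5% (2.45% to 30.2%) at the peaks nearest to a member. Among these 9 high peaks, 1 had the motif, the intronic peak of Itga5, against 21.7% of the high peaks of the whole list. When the full length of each peak was searched, 24 of the 47 held at least 1 motif, or 51.1% (36.1% to 65.9%), against 58.6% of all peaks. In the whole peaks there were 1.46 motifs per kb at the 9 genes and 1.48 per kb in the list. The Itga4 peak in intron 2 with the most reads and the Itga5 intronic peak each held 4 motifs along their length. The peak near Icam4 held 5 over 2910 bp, whereas those of Itga4 and Itga5 were 1295 and 1158 bp wide.

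Motifs of other families were counted at the same summits as a description. The ETS motif was present at 14 of the 47, or 29.8% (17.3% to 44.9%), against 20.4% of all peaks, and it was the most frequent of the 6 families both here and in the list. GATA and the E-box were each present at 8 summits, or 17.0% (7.65% to 30.8%), against 13.8% and 14.2%. RUNX was present at 6, or 12.8% (4.83% to 25.7%), against 12.2%. No summit held the CEBP motif, with an exact 95% upper bound of 7.55%, and 3.52% of all peaks held it. At least 1 of the 5 other families was present at 23 of the 47 summits, or 48.9%, against 49.8% of all. Each of the intervals at the 9 genes included the share of the whole list.

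**Figure D4:**
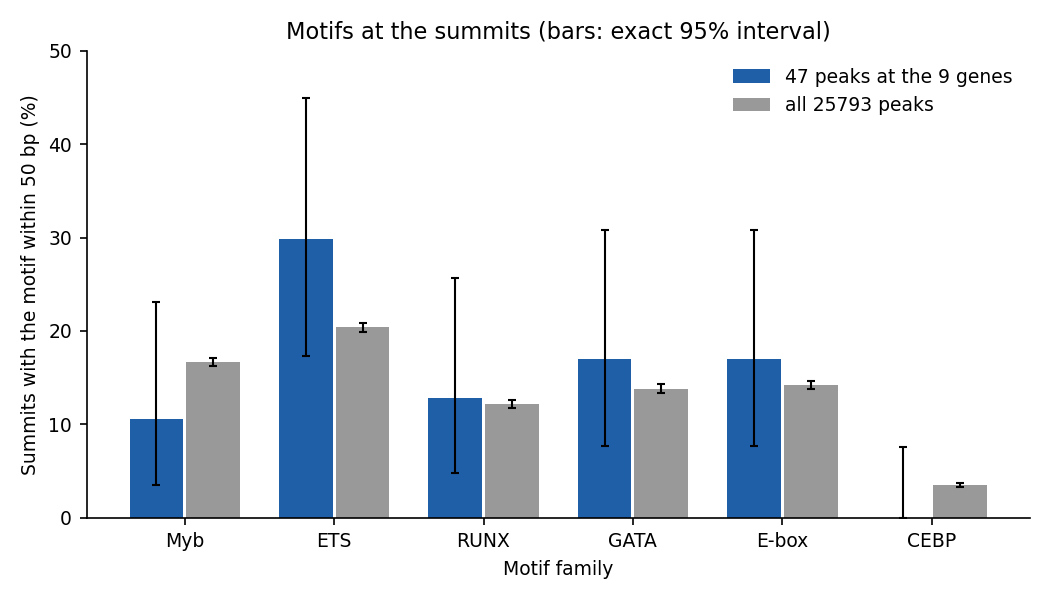
Share of summits with each motif within 50 bp (vertical axis, in percent) for the 47 peaks at the 9 genes (blue) and all 25793 peaks (gray), with exact 95% intervals. ETS is the most frequent in both, at 29.8% and 20.4%, Myb is at 10.6% and 16.7%, and the interval of each blue bar includes the gray bar.

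Base composition was measured in the 201 bp around each summit. The median GC content was 48.8% (42.8% to 56.2%) for the 26 peaks nearest to a member and 52.2% (50.7% to 59.7%) for the 21 nearest to a neighbor, with a median of 3 and 6 CpG dinucleotides, and the intervals overlapped. Over all peaks the medians were 48.3% and 3. The GC interval of the 21 peaks nearest to a neighbor did not include 48.3%. For the 47 peaks together the median GC content was 52.2% (49.3% to 55.7%), which did not include it either. Their median of 4 CpG dinucleotides (3 to 6) had an interval that included the 3 of all peaks. The intronic peaks of Itga4 had a GC content of 31.3% to 44.3% and those of Itgb1 34.8% to 43.8%, whereas the Icam1 summits ranged from 50.2% to 64.7%.

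RefSeq promoter sequences on GRCm38.p6 were matched for 6 of the 9 genes, Itga4, Itga5, Itgam, Itgb1, Itgb7 and Icam1. The 250 bases upstream of the start site are given for the 3 of these that a peak overlapped, Itga4 at chr2:79255176-79255425, Itgb1 at chr8:128685404-128685653 and Icam1 at chr9:21015690-21015939, each from 5′ to 3′ on the forward strand. Capitals mark the ETS motif, AGGAAG or CGGAAG, on either strand.

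Itga4 promoter: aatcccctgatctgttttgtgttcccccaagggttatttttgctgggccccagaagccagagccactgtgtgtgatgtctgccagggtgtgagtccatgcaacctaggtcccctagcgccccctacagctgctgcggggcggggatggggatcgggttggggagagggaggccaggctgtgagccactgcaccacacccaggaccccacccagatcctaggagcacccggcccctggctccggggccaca
Itgb1 promoter: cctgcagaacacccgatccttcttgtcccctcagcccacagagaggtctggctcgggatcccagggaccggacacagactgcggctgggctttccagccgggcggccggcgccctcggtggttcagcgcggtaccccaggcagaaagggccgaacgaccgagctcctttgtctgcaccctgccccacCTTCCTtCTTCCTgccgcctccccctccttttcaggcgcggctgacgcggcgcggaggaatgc
Icam1 promoter: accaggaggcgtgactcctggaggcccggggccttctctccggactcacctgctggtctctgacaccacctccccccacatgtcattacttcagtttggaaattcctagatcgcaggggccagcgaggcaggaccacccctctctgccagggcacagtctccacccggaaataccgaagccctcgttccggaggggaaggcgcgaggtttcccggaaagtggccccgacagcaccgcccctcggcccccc

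None of the 6 promoters held the Myb motif in these 250 bases, which 23.7% of the 32851 promoters of the table did. The ETS motif was present in those of Itgb1, Itgam and Itgb7, against 39.2% of the table. The Itgb1 promoter was the richest in CpG, with 21, and the Icam1 promoter held 15 and that of Itga4 6. The summits of the peaks over the Itga4 and Icam1 promoters lay inside these bases, and that of Itgb1 lay just before them.

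Other genes of adhesion and homing were examined from a list of 48. Of these, 40 had a peak in the gene body or within 30 kb, against 62.8% of protein-coding genes, and 24 had a summit within 3 kb of their own start sites, against 39.9%. Among its groups, a peak was found at 17 of 19 other integrin genes, 8 of 10 ligand and scaffold genes, 7 of 8 integrin activator and adaptor genes, 4 of 5 genes of selectin ligand glycosylation, and 1 of 3 genes of the chemokine axis. A peak counted here can lie nearer to another gene. At several of the other integrin genes, every counted peak did. A summit within 3 kb of an own start site was found at 5 of the 19 other integrin genes, 6 of the 10 ligand and scaffold genes, 7 of the 8 activator and adaptor genes, 4 of the 5 glycosylation genes and 1 of the 3 chemokine axis genes.

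The highest fold enrichments of the list exceeded those at the 9 genes, but maxima of 48 genes are set here against those of 9. The highest value at the 9 genes, 11.3 in the Itga5 window, was reached in the windows of 5.92% of protein-coding genes. Spn, which encodes the sialomucin CD43, had a peak 315 bp from its start site at chr7:127136129-127138509 with a fold enrichment of 17.2 on 88 reads (70.6 to 108). The chemokine receptor gene Cxcr4, which holds progenitors in the marrow, had one 23153 bp away with 15.7 on 59 reads (44.9 to 76.1). Rap1a, a small GTPase of integrin activation, reached 14.6 on 51 reads in a peak outside its gene body and nearest to Gm5547. Apbb1ip, its adaptor to talin, had 15 peaks, the most of the list, with the strongest in the gene body at 14.4 on 54 reads (40.6 to 70.5). Cd44, a hyaluronan receptor, had an intragenic peak at 13.4 on 55 reads (41.4 to 71.6), with the nearest start site that of Gm23731, 30270 bp away. The Itgb4 window reached 13.1 in a peak nearest to H3f3b. A Myb motif lay at the strongest summit of Rap1a, Apbb1ip, Cd44 and Itgb4, and at neither of those of Spn and Cxcr4. The read interval of the Spn peak lay above those of all 47 peaks at the 9 genes, of which the highest upper bound was 70.5 reads.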

How the data were processed

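The authors used cutadapt 1.15 for trimming and BWA 0.7.13 for alignment to mm10, removed duplicates with Picard, filtered on mapping quality and the blacklist, and called narrow peaks with MACS2 2.1.1.20160309 against IgG, keeping calls shared between pseudo-replicates of the single library at a stated q-value of 0.05, which the deposited q-values of some peaks exceed. Fold enrichment was deposited as a ratio of Myb pileup to local background, and p- and q-values as −log10 values. The deposited score was 10 times the −log10 p-value and was not used.

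Every one of the 25793 peak ends lay within its GRCm38 chromosome. Summits were assigned to GENCODE vM21, with all annotated transcript starts considered. The depth of the libraries is not in the list. Reads were recovered from fold enrichment and p-value with 1 pileup scale of 0.769, which gave whole reads in 100% of rows (tolerance of 0.002 on the −log10 p-value), and this step was tested on simulated rows. More than 1 read number matched in 1.14% of rows, where the closest was taken. Counting intervals are exact (Clopper-Pearson or Poisson).

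No p-value was computed, because there was 1 Myb library and peaks are not replicates. The genes, the list of 48 and the motifs were chosen with earlier results of these data known. By the rule for names, all 9 genes, the genes nearest to their peaks and the 6 genes of the list with the highest fold enrichment are named. Counts of the selectin group of the list are not reported here. Alternatives covered q-value filters, gene windows, motif forms and windows, and start sites. Python 3.11.15, SciPy 1.17.1 and pandas 2.3.3 were used.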

Additional observations from a re-analysis of the deposited data

How the results depend on the processing

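Of 52 alternative values, 38 stayed within the interval of the reported value or within 1.5 times the count, and 14 moved. With the −log10 q-value at 5 or above there were 19 peaks at the 9 genes, with a median fold enrichment of 5.94, and a peak at 8 of the genes and at 47.2% of protein-coding genes. That share was 60.5% at a −log10 q-value of at least 2 and 61.7% at a q-value of at most 0.05, a filter added after the data were seen. Fewer and stronger peaks follow from these filters. With windows of 3, 10 and 50 kb, 46.4%, 52.6% and 68.7% of protein-coding genes had a peak, and 96.0%, 73.5% and 40.0% of the peaks at the 9 genes were nearest to the member, since wider windows take in more neighbors. The window of 3 kb held 25 peaks, at 8 of the 9 genes. The promoter share within 3 kb of any start site was 66.0% (50.7% to 79.1%), against 57.6% of all peaks. Its interval included that value. Within 1 kb the promoter share was 48.9%, for which the share of all peaks is not given here. The looser motif AACNG was present at 57.4% of the summits, against 54.3% of all peaks. Within 100 bp the Myb motif was present at 21.3%, against 30.0% of all peaks, and within 25 bp at 8.51%, against 8.68%. Among peaks of the 9 genes with a −log10 q-value of 5 or more, 5.26% held the motif (0.133% to 26.0%), against 19.6% of all such peaks. Depth limits single peaks, most of which rest on fewer than 30 reads.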

Other observations

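Some windows of the wider adhesion list share their peaks. The 5 peaks in the window of Icam1 were also the 5 peaks in those of its neighbors Icam4 and Icam5, and the nearest start site of the strongest was that of Icam4. Selp, the selectin of platelets and endothelium, had its strongest peak in its gene body, with a fold enrichment of 10.4 on 40 reads (28.6 to 54.5). Vcam1, the ligand of the receptor of Itga4 and Itgb1, had 2 peaks in its gene body, the stronger with a fold enrichment of 10.2 on 32 reads (21.9 to 45.2). Among the other integrin genes, Itgb3, the platelet beta chain, had 9 peaks, 6 of them nearest to Itgb3, with the strongest in its gene body at a fold enrichment of 12.4 on 49 reads (36.3 to 64.8). Fut7, which completes the selectin ligand on the scaffold encoded by Selplg, had a peak 216 bp from its start site with a fold enrichment of 9.05 on 34 reads (23.5 to 47.5) and a Myb motif. Selp, Vcam1, Itgb3 and Fut7 were picked for naming after their values were seen.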
